A study of Mus musculus with 2 samples.

Results

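The cells described here were Pax2 Spock1 inhibitory interneurons in which no Lhx5 transcript was detected. They were cell barcodes with at least 500 genes and at most 10% mitochondrial transcripts that held at least 1 Pax2 UMI (unique molecular identifier, a counted RNA molecule), at least 1 UMI of Gad1 or Gad2, at least 2 UMIs of Spock1, and no UMI of Lhx5, Sst, Inhba or Tll2. The rule was met by 303 of the 16547 barcodes kept, 138 in the control library and 165 in the mutant library, which are called members below. They came from mice at postnatal day 1 whose cerebellar lobules III and IV were dissected out and dissociated for droplet-based single-cell RNA sequencing. The study compared 1 library of Cxcr4+/+ littermates with 1 library of Cxcr4+/1013 mice. The mutant allele makes a receptor whose C-terminal tail is shortened. Both libraries carry the strain label B6.129S2-Cxcr4tm1.1Bala, and no promoter or Cre is named that would restrict the allele to a cell type. The labels do not say how many animals were pooled for a library. Both libraries held female and male cells. With 1 library per genotype, no difference between genotypes could be tested. All intervals are 95% intervals that cover counting error only, since UMIs and cells of 1 library are not replicates.

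Pax2 encodes a paired-box transcription factor that marks the precursors of most inhibitory interneurons of the cerebellum. These precursors arise from Ptf1a progenitors of the ventricular zone, divide and migrate through the prospective white matter, and become interneurons of the deep nuclei, Golgi and other granular layer cells, and finally the basket and stellate cells of the molecular layer. Lhx5 encodes a LIM homeobox factor of the early inhibitory lineage. Spock1 encodes testican-1, a secreted proteoglycan of the extracellular matrix. CXCR4 is the receptor of the chemokine CXCL12, which is made by the meninges and guides granule cell precursors.

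The control library held 9586 barcodes and 120003656 UMIs, and the mutant library held 9551 barcodes and 130429500 UMIs. After the filters, 8353 control and 8194 mutant barcodes remained, with medians of 12101 and 13557.5 UMIs. The libraries shared 25 barcode sequences, and none of them was a member in both libraries. RNA free in the suspension could not be measured, because the matrices hold only barcodes with at least 500 UMIs.

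The members were chosen by measured UMIs, so the genes of the rule are given as a description. Pax2 was detected in 3447 barcodes, of which 3089 also held Gad1 or Gad2, the 2 GABA-synthesising enzymes. Of these, 1683 held at least 2 Spock1 UMIs, and 303 of them (18.0%) had none of the 4 excluded genes. Lhx5 was the condition that removed most: 1048 of the 1683 held it, and 516 were left out by Lhx5 alone, 225 of them by a single UMI. Sst, which encodes the neuropeptide somatostatin, was present in 738, Tll2, a tolloid-like protease, in 450, and Inhba, a subunit of activin, in 355. Around the Spock1 threshold, 59 barcodes met every other condition with 1 Spock1 UMI, 44 with 2 and 38 with 3. At 1 Spock1 UMI the level of Gpr22 was 40.9 CPM (UMIs of a gene per 1000000 UMIs of the barcodes summed) for control and 26.2 CPM for mutant barcodes. At 2 UMIs it was 32.7 and 31.6 CPM, and at 3 UMIs 69.1 and 81.5 CPM. Scube1 was at 23.9 and 20.9 CPM, 23.3 and 8.63 CPM, and 75.7 and 73.3 CPM in the same order. Alk was at 40.9 and 20.9 CPM, 37.4 and 11.5 CPM, and 6.58 and 8.15 CPM, so that it was not higher with more Spock1 UMIs in this range. These Alk levels rest on few UMIs: 12, 8 and 2 in control and 8, 4 and 2 in mutant barcodes.

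The members of the control library held 2055299 UMIs in all, with 1794 to 55749 UMIs per cell (median 12601.5). Those of the mutant library held 2520150, with 2627 to 54354 per cell (median 13100). Spock1 ranged from 2 to 53 UMIs per control member (median 6) and from 2 to 42 per mutant member (median 7). Pax2 ranged from 1 to 15 (median 4) and from 1 to 28 (median 5). Gad1 was detected in 97.1% of control and 99.4% of mutant members, and Gad2 in 82.6% and 87.9%. Doublet scoring marked 23 control members (16.7%) and 22 mutant members (13.3%), against 7.67% and 7.64% of all kept barcodes. These barcodes were kept. Values without them are given beside some of the results below.

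The members made up 1.65% of the kept control barcodes (1.39% to 1.95%) and 2.01% of the kept mutant barcodes (1.72% to 2.34%). The ratio of mutant to control was 1.22, with an interval of 0.966 to 1.54 that includes 1. Barcodes with Pax2 and Gad1 or Gad2 of every kind numbered 1338 (control) and 1751 (mutant), with a ratio of shares of 1.33 (1.24 to 1.43). Within those barcodes the members were 10.3% of the control and 9.42% of the mutant library, a ratio of 0.914 (0.724 to 1.15). The member share was thus the larger in the mutant library over all barcodes and the smaller over Pax2 Gad barcodes, and the intervals of both ratios include 1. The first ratio varied with the rule. It was 1.39 (1.10 to 1.75) when barcodes were thinned to 5000 UMIs before the rule. With up to 1 UMI of each excluded gene allowed it was 1.41 (1.21 to 1.65), and both intervals lie above 1. For members of the 2 leading clusters described below it was 1.34 (1.03 to 1.76). With Spock1 at least 1 it was 1.19 (0.963 to 1.47), and with Spock1 at least 3 it was 1.22 (0.947 to 1.57). Without doublet calls it was 1.27 (0.984 to 1.63). With at least 1000 genes and at most 5% mitochondrial transcripts it was 1.26 (0.979 to 1.63). The intervals under these Spock1 minimums and filters include 1. In female cells the members numbered 64 and 64, with a share ratio of 1.11 (0.774 to 1.60). In male cells they numbered 51 and 78, with a ratio of 1.24 (0.860 to 1.80). Because each library has its own dissection, dissociation and capture, genotype and library cannot be told apart in these shares.

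The label of the cells names 3 genes that the rule did not use: Gpr22, an orphan G protein-coupled receptor (GRCm38 chromosome 12, 31706867 to 31713947), Alk, the anaplastic lymphoma receptor tyrosine kinase (chromosome 17, 71868972 to 72604627), and Scube1, a secreted and membrane-bound EGF-domain protein (chromosome 15, 83604999 to 83725021). Their UMIs were summed over the members of each library and divided by all UMIs of those members. Gpr22 stood at 119 CPM in control members (interval 104 to 135) and 122 CPM in mutant members (109 to 136). Alk stood at 178 CPM (160 to 197) and 181 CPM (164 to 198), and Scube1 at 87.1 CPM (74.8 to 101) and 92.1 CPM (80.6 to 105). The intervals of the 2 libraries overlapped for each of the 3 genes.

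All 3 were lower in the sets of Pax2 Gad barcodes with at most 1 Spock1 UMI. Their levels in barcodes with at least 2 Spock1 UMIs that were left out of the members are given further on. The Lhx5 set (196 control and 258 mutant barcodes with at least 2 Lhx5 UMIs, at most 1 Spock1 UMI and no Sst, Inhba or Tll2) held Gpr22 at 12.8 and 11.3 CPM, Alk at 24.9 and 32.0 CPM and Scube1 at 6.41 and 3.68 CPM. The Sst set (73 and 92 barcodes with at least 2 UMIs of Sst, Inhba and Tll2 together, no Lhx5 and at most 1 Spock1 UMI) held Gpr22 at 18.7 and 12.2 CPM, Alk at 14.2 and 7.32 CPM and Scube1 at 9.78 and 7.93 CPM. Alk was also present outside neurons, at 85.2 and 99.4 CPM in barcodes of the oligodendrocyte lineage, so that it does not single out the members by itself. Gpr22 was at 1.83 and 2.96 CPM in granule cell progenitor barcodes.

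**Figure D1:**
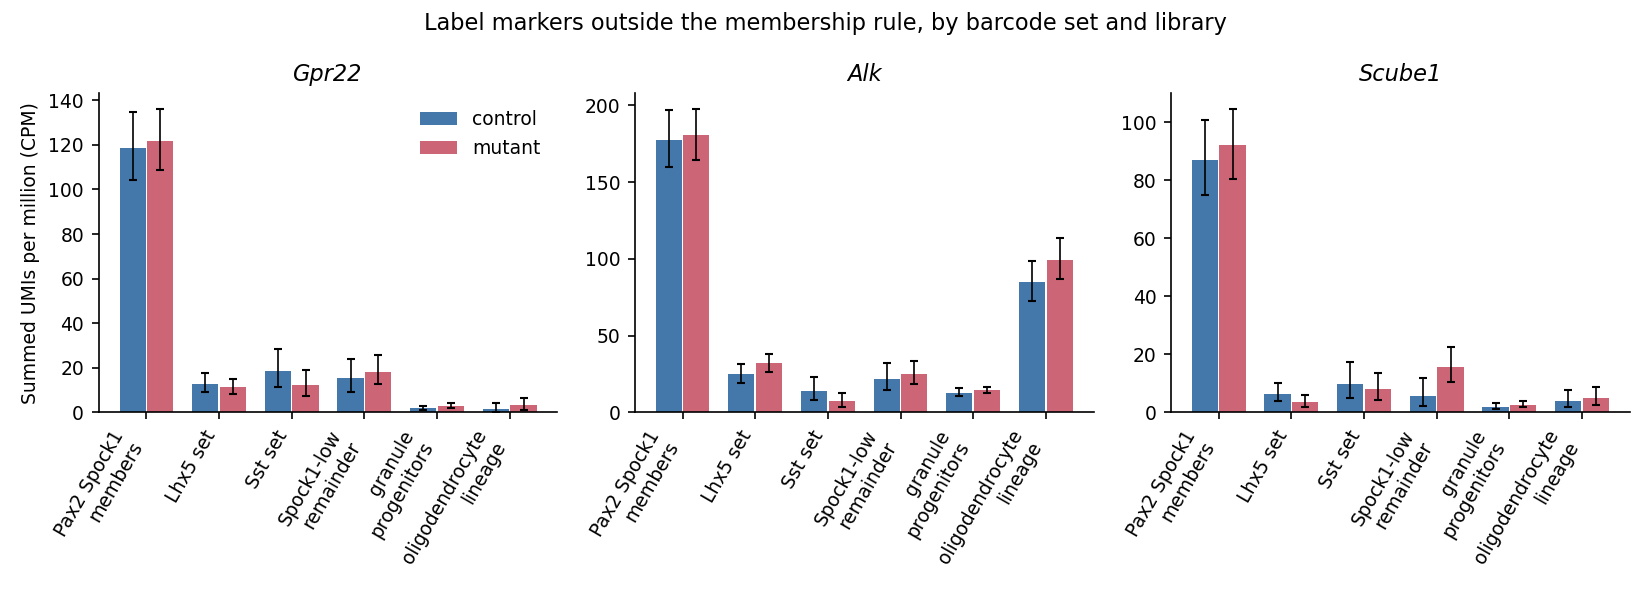
Levels of Gpr22, Alk and Scube1 in CPM of summed UMIs (y axis) in 6 sets of barcodes (x axis) of the control (blue) and mutant (red) library, with exact Poisson intervals as bars. Members stand above each other set for all 3 genes, and Alk has a second high level in the oligodendrocyte lineage.

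After each cell was thinned to 5000 UMIs, which left 123 control and 156 mutant members, the share with a Gpr22 UMI was 43.1% for control and 34.6% for mutant members. For Alk it was 30.1% and 25.6%, and for Scube1 36.6% and 29.5%. Without thinning, 60.9% of control members held Gpr22, 37.7% Alk and 53.6% Scube1, and of mutant members 36.4% held Alk and 48.5% Scube1. In thinned granule progenitor barcodes, which should lack all 3, the shares were 0.261% and 1.09% for Gpr22, 4.44% and 7.08% for Alk and 0.783% and 1.09% for Scube1. Alk was not particular to members by this measure: thinned oligodendrocyte lineage barcodes held it in 30.3% (control) and 30.9% (mutant). Gpr22 was at 0.917% and 0% there, and Scube1 at 0.917% and 4.88%. None of the 3 markers was found in 32.5% of thinned control members and 42.9% of thinned mutant members, and all 3 were found in 9.76% and 7.05%. In the Lhx5 set, 78.8% and 84.1% held none. The 3 label markers therefore described the members as a group, but not each member.

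The absence of Lhx5 was part of the rule, and what it excluded was not far from what it kept. Clustering of all kept barcodes without the rule's 8 genes placed 234 members (77.2%) in 2 clusters, which held 547 and 430 Pax2 Gad barcodes with at least 2 Spock1 UMIs. In the first of these clusters, the 168 control barcodes left out of the members had a mean of 1.28 Lhx5 UMIs and a median of 14279.5 UMIs in all, against 11789 in the 57 members. Their Alk level was 255 CPM against 351 CPM in the members, their Gpr22 level 182 CPM against 203 CPM and their Scube1 level 97.8 CPM against 137 CPM. In the mutant library the 250 left out had a mean of 1.46 Lhx5 UMIs, with Alk at 309 CPM against 425 CPM, Gpr22 at 145 CPM against 220 CPM and Scube1 at 114 CPM against 142 CPM. These left-out barcodes thus held all 3 label markers at levels above the averages over all members. A barcode with no Lhx5 UMI at this depth is not shown to lack Lhx5 RNA. When every barcode was thinned to 5000 UMIs before the rule was applied, 127 control and 192 mutant barcodes met it, and 60 and 89 of them were members at full depth.

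The members fell into groups with distinct genes. At Leiden resolution 1, members were found in 15 of 39 clusters. The first cluster held 129 members (42.6%) and was led by Alk, Gpr22, Scube1, Cdkn1c and Myrip. The second held 105 members (34.7%) and was led by Nxph1, Htr7, Ptprt, Inpp4b and Kit. The first held 41.3% of control and 43.6% of mutant members, a ratio of 1.06 (0.736 to 1.52), and the second held 31.9% and 37.0%, a ratio of 1.16 (0.774 to 1.75). The remaining 37 control and 32 mutant members were spread over other clusters, a ratio of 0.723 (0.436 to 1.19). Since the clusters were made from the cells' own genes, the differences between them are a description without a test.

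**Figure D2:**
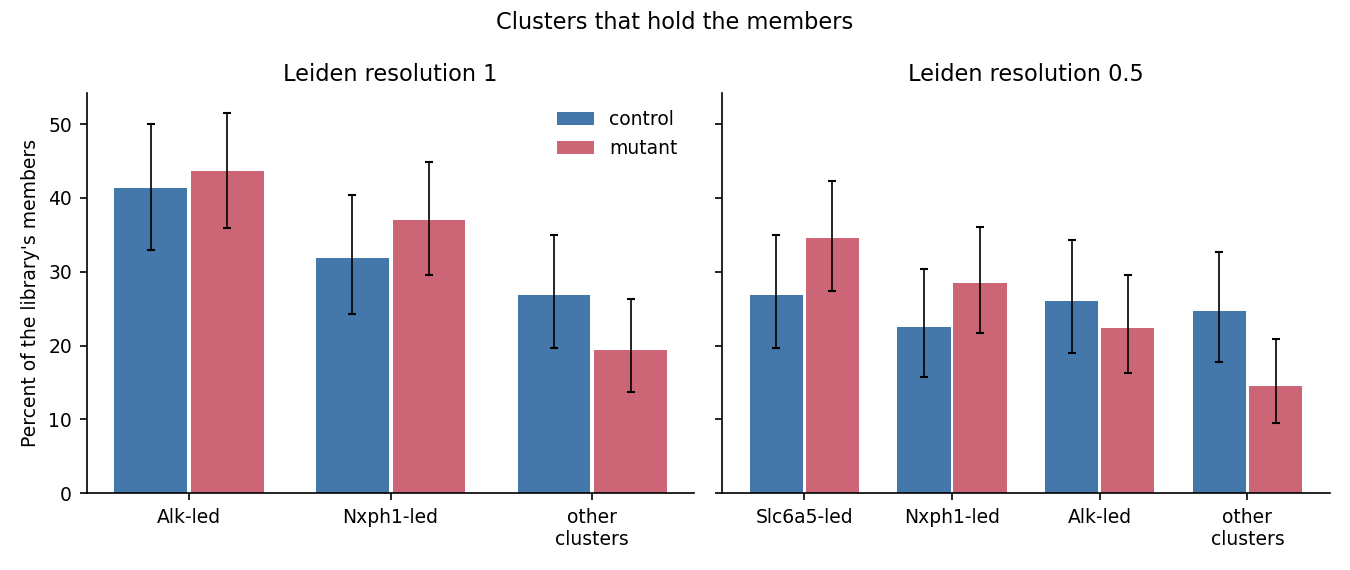
Percent of each library's members (y axis) in the clusters that held most of them (x axis, named by the leading gene) at Leiden resolution 1 (left) and 0.5 (right), with exact Clopper-Pearson intervals as bars. The intervals of control (blue) and mutant (red) overlap in each cluster.

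Alk separated the members of these 2 clusters, but not all of their barcodes. In the second cluster the Pax2 Gad barcodes with at least 2 Spock1 UMIs that were left out held Alk at 98.0 CPM (control) and 51.4 CPM (mutant). Among first-cluster members it stood at 351 CPM (control) and 425 CPM (mutant), while the 44 second-cluster control members held no Alk UMI among 418089 and the 61 mutant ones held 1 among 723348. Gpr22 was present in both, at 203 and 220 CPM in the first cluster and 110 and 80.2 CPM in the second. Scube1 was at 137 and 142 CPM in the first and 129 and 89.9 CPM in the second. Spock1, part of the rule, was at 991 and 937 CPM in the first and 569 and 527 CPM in the second.

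First-cluster members also stood higher in several receptor and adhesion genes. Cdkn1c, a cyclin-dependent kinase inhibitor, was at 1489 CPM against 158 CPM in second-cluster control members and at 1387 against 178 CPM in mutant ones. Grm8 and Grm3, both metabotropic glutamate receptors, were at 362 against 2.39 CPM and 668 against 64.6 CPM in the control library. In the mutant library they were at 349 against 13.8 CPM and 554 against 65.0 CPM. Rora, a nuclear receptor gene known from Purkinje cells and molecular layer interneurons, was at 3064 against 1076 CPM and 3769 against 1139 CPM. Plxna4, a semaphorin co-receptor, and Kirrel3, a synaptic adhesion protein, were on the same side. Plxna4 was at 147 CPM against 0 among control and 164 against 5.53 CPM among mutant members. In each of these genes the 2 libraries gave the same order of clusters.

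Second-cluster members stood higher in Nxph1, Ptprt and several other surface proteins. Nxph1, a secreted ligand of neurexins, was at 2399 CPM against 144 CPM in first-cluster control members and at 2370 against 217 CPM in mutant ones. Ptprt, a receptor tyrosine phosphatase, was at 1227 against 26.6 CPM and 1308 against 30.5 CPM. Kit, the stem cell factor receptor and a marker of molecular layer interneurons, was at 679 against 295 CPM and 570 against 275 CPM. Cdh22, a cadherin, was at 194 against 9.79 CPM and 142 against 7.12 CPM. Robo1, a Slit receptor, was at 756 against 131 CPM and 864 against 165 CPM. Calb2, the calcium-binding protein calretinin, was at 371 against 35.0 CPM and 241 against 49.9 CPM. Gabbr2, a GABA-B receptor subunit, was at 500 against 150 CPM and 549 against 147 CPM. Sox11 and Nfib were also the higher in the second cluster. Sox11, a transcription factor of newborn neurons, was at 3121 against 1155 CPM and 3286 against 1495 CPM. Nfib, a nuclear factor I gene, was at 3518 against 1267 CPM and 4218 against 1688 CPM.

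At resolutions 0.5 and 2 the members separated into 3 leading clusters in place of 2. At 0.5 these held 94, 78 and 73 members, or 80.9% together, and were led by Slc6a5, Nxph1 and Alk. At 2 they held 88, 77 and 73 members, or 78.5%, with the same leading genes. The Alk-led cluster at 0.5 lay wholly within the first cluster at resolution 1, and the Nxph1-led one within the second. The Slc6a5-led cluster drew 21 control and 35 mutant members from the first, and 13 control and 14 mutant members from the second. Slc6a5, the neuronal glycine transporter, was at 251 CPM in its control and 261 CPM in its mutant members, against 108 and 123 CPM in the Alk-led and 119 and 152 CPM in the Nxph1-led members. Alk was at 17.9 and 65.2 CPM there, against 499 and 641 CPM in the Alk-led members. Nxph1 was at 119 and 197 CPM, against 2956 and 2810 CPM in the Nxph1-led members.

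The Slc6a5-led members stood highest in Pax2, Nfib, Erbb4 and Zic1. Pax2 was at 555 and 663 CPM in them, 467 and 605 CPM in the Nxph1-led members and 220 and 254 CPM in the Alk-led members. Nfib was at 3398 and 3994 CPM in the Slc6a5-led, 2983 and 3906 CPM in the Nxph1-led and 759 and 729 CPM in the Alk-led members. Erbb4, a neuregulin receptor, was at 1072 and 1666 CPM, 914 and 1350 CPM, and 167 and 72.7 CPM in the same order. Zic1, a zinc-finger factor of the cerebellum, was at 609 and 729 CPM in the Slc6a5-led members, against 350 and 401 CPM in the Alk-led and 137 and 233 CPM in the Nxph1-led ones. Rora went the other way, at 3408 and 4642 CPM in the Alk-led members against 1812 and 1989 CPM in the Slc6a5-led and 1113 and 1233 CPM in the Nxph1-led ones. Both libraries gave the same order in Pax2, Erbb4, Zic1 and Rora. Median depth differed beside these genes, at 14778 and 16108 UMIs in the Alk-led and 9342 and 10300 UMIs in the Slc6a5-led members, and its part in the clustering was not tested.

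**Figure D3:**
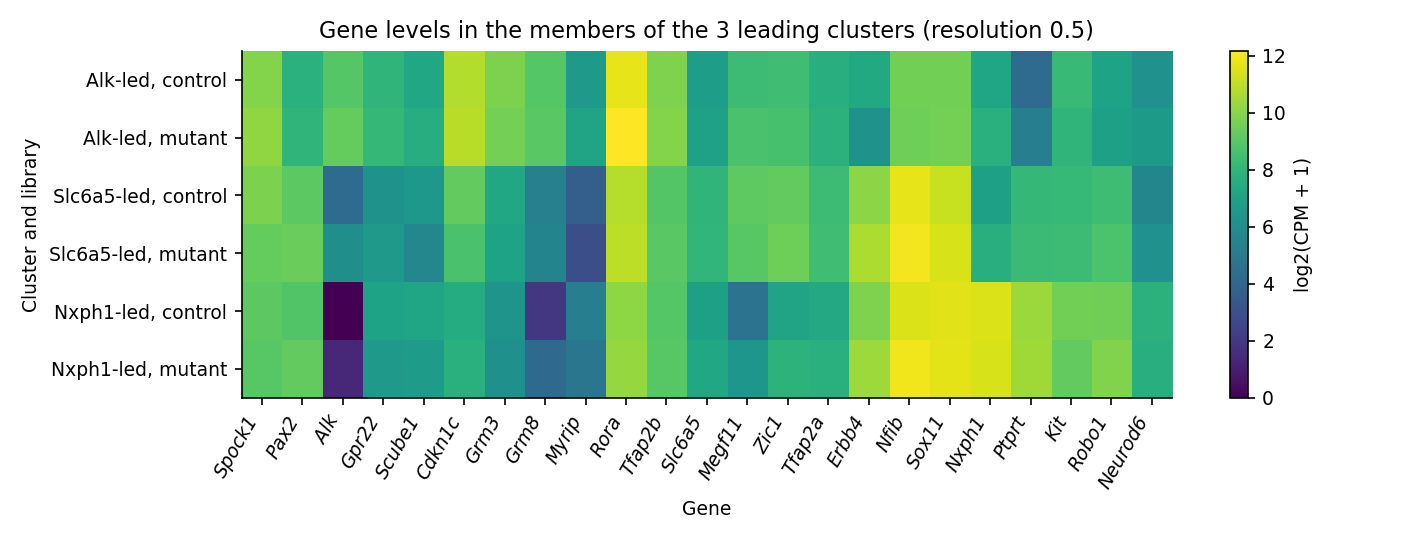
Level of 23 genes (x axis) in the members of the 3 leading clusters at resolution 0.5, by library (y axis). Color is log2(CPM + 1). Alk, Grm3, Grm8 and Cdkn1c are brightest in the Alk-led rows and Nxph1 and Ptprt in the Nxph1-led rows, in both libraries.

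Alk and Ptprt, chosen after their values were seen and both among the genes the clusters were made from, are also given per cell as a description. Of 138 control members, 33 held Alk but no Ptprt UMI, 54 held Ptprt but no Alk, 19 held both and 32 held neither. Of 165 mutant members, 42 held Alk alone, 68 Ptprt alone, 18 both and 37 neither. Without the members marked as doublets, 10 of 115 control members (8.70%) and 13 of 143 mutant members (9.09%) held both.

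Members outside the 2 leading clusters were of several kinds. Together they held 922126 of the 2055299 UMIs of control members and 813997 of the 2520150 UMIs of mutant members. They had a median of 24232 UMIs (control) and 23932 UMIs (mutant), and doublet scoring marked 20 of the 37 and 18 of the 32. Of these, 20 were in a cluster led by the Purkinje cell genes Calb1, Car8 and Pcp2, with 7 doublet calls. Another 16 were in a cluster led by Slit3 that also listed Rbfox3 and Reln, with 15 doublet calls. A further 11 (3 control and 8 mutant), with 1 doublet call, were in a cluster led by Slc6a5, Megf11, Skor1 and Tfap2a, in which 542 of all barcodes held Pax2 and Gad1 or Gad2. Calb1, a calcium-binding protein of Purkinje cells, was at 1376 and 1318 CPM over all members outside the leading clusters, against 14.0 and 14.2 CPM in the first and 23.9 and 22.1 CPM in the second cluster. Reln was at 242 and 203 CPM against 16.8 and 11.2 CPM and 35.9 and 88.5 CPM. The list of 8 Purkinje cell markers summed to 4059 CPM over all control and 3957 CPM over all mutant members, and all 8 were detected in both.

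Marker lists of other cell types were summed over all members. The 6 granule neuron markers summed to 652 CPM in control and 643 CPM in mutant members, and 47.1% and 56.4% of members held at least 3 of them. In the Lhx5 set they summed to 548 and 541 CPM. The 5 granule cell progenitor markers summed to 65.2 and 80.6 CPM. The 8 astroglial markers summed to 339 CPM in control and 104 CPM in mutant members, with all 8 and 7 detected and Gfap at 0 in the mutant library. A cluster led by Pgm5, Tnc, Hepacam and Ednrb held 3 control members and no mutant member, and one led by Apoe, Aqp4 and Aldoc held 1 of each. Each of these 5 was marked as a doublet. A cluster led by the collagen gene Col3a1, with S100a6 and Cxcl12 among its leading genes, also held 1 member of each library, both marked. The 7 vascular and meningeal markers summed to 123 and 63.1 CPM. The 5 markers of microglia and macrophages summed to 6.81 and 5.95 CPM. The 7 markers of midbrain and brainstem GABAergic neurons summed to 9.73 and 5.16 CPM, with 4 detected in control and 3 in mutant members. Among them Gata3, Sox14 and Six3 were at 0 in both libraries. The 6 forebrain interneuron markers summed to 0 and 0.397 CPM, with Dlx1, Dlx2, Dlx5 and Lhx6 at 0 in both.

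The members carried the machinery of inhibitory neurons. Slc32a1, the vesicular transporter of GABA and glycine, was at 197 CPM in control members (178 to 217) and 184 CPM in mutant members (167 to 201). Slc6a5 was at 100.2 CPM (87.0 to 115) and 137 CPM (123 to 153), and its intervals did not overlap. Within the clusters it was at 150 and 166 CPM in first-cluster members and 136 and 187 CPM in second-cluster members. The other kept barcodes held it at 17.7 and 23.2 CPM. Markers of adult interneuron types ranged widely. Npy was at 1.46 and 0.794 CPM, Pvalb at 3.41 and 5.56 CPM, and Nos1 at 1.46 and 1.19 CPM, while Kit was at 287 and 315 CPM and Nxph1 at 691 and 829 CPM. The netrin receptor Unc5c was abundant, at 5597 and 7461 CPM in the members against 3220 and 3781 CPM in the Lhx5 set.

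Against the Lhx5 set, 11549 genes had at least 50 UMIs over both sets and libraries. Of these, 723 (6.26%) were at least 2-fold higher in members in both libraries, and 706 (6.11%) at least 2-fold lower. Cell cycle genes were lower in the members. Of 32 genes of the G2/M phase, 31 were at least 2-fold lower in the members, with a median log2 difference of -3.32 (control) and -3.27 (mutant), beside -0.05 and -0.04 over all genes tested. Of 28 S phase genes, 25 were lower, with medians of -1.72 and -2.29. Mki67, the proliferation antigen, was at 9.24 and 10.7 CPM in members against 175 and 203 CPM in the Lhx5 set. Top2a, a topoisomerase of dividing cells, was at 27.7 and 22.2 CPM against 366 and 357 CPM. Ccnd2, a D-type cyclin, was at 78.8 and 69.4 CPM against 1537 and 1478 CPM.

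Several transcription factors of ventricular zone progenitors were also lower. Prdm13, a factor of the inhibitory lineage acting with Ptf1a, was at 5.35 and 0.794 CPM in members against 76.3 and 91.1 CPM in the Lhx5 set. Of 43 transcription factors tested, 10 were at least 2-fold lower, among them Ptf1a, Neurog1, Neurog2 and Sox2, and 2 were higher, Bhlhe22 and Nr2f2. Of 13 genes of the Sonic hedgehog pathway, 8 were lower and 1 higher.

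Receptor, synapse and channel genes were on the higher side. Of 22 glutamate receptor genes, 12 were at least 2-fold higher in members and none was lower, with medians of 1.52 and 1.14. Grm3 was at 338 and 289 CPM against 62.7 and 81.1 CPM, and Gria3, an AMPA receptor subunit, at 329 and 377 CPM against 101 and 107 CPM. Second-cluster members held Grm3 at 64.6 and 65.0 CPM, so they did not share its difference from the Lhx5 set. Of 26 synaptic genes, 12 were higher and 1, Sv2b, was lower. Syt1, the calcium sensor of transmitter release, was at 444 and 364 CPM against 106 and 140 CPM. Of 14 markers of adult interneuron types, 9 were higher and none lower. Kit was at 287 and 315 CPM against 111 and 111 CPM, and Gjd2, the gap junction protein connexin 36, at 32.1 and 39.3 CPM against 7.84 and 7.09 CPM. Of 30 channel genes, 10 were higher and none lower.

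Beside Scube1, 7 genes are named as higher. Myrip, a myosin and Rab adaptor, was at 44.8 and 44.4 CPM against 2.14 and 1.31 CPM, and Inpp4b, a lipid phosphatase, at 277 and 320 CPM against 26.7 and 31.0 CPM. Cdkl1, Sla and Vmn2r7 were on the same side. Brinp3 and S100a6 were exceptions: Brinp3 was at 5.59 and 3.05 CPM in first-cluster members and 268 and 216 CPM in the members outside both leading clusters, and S100a6 was at 4.20 and 0 CPM against 84.6 and 243 CPM.

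**Figure D4:**
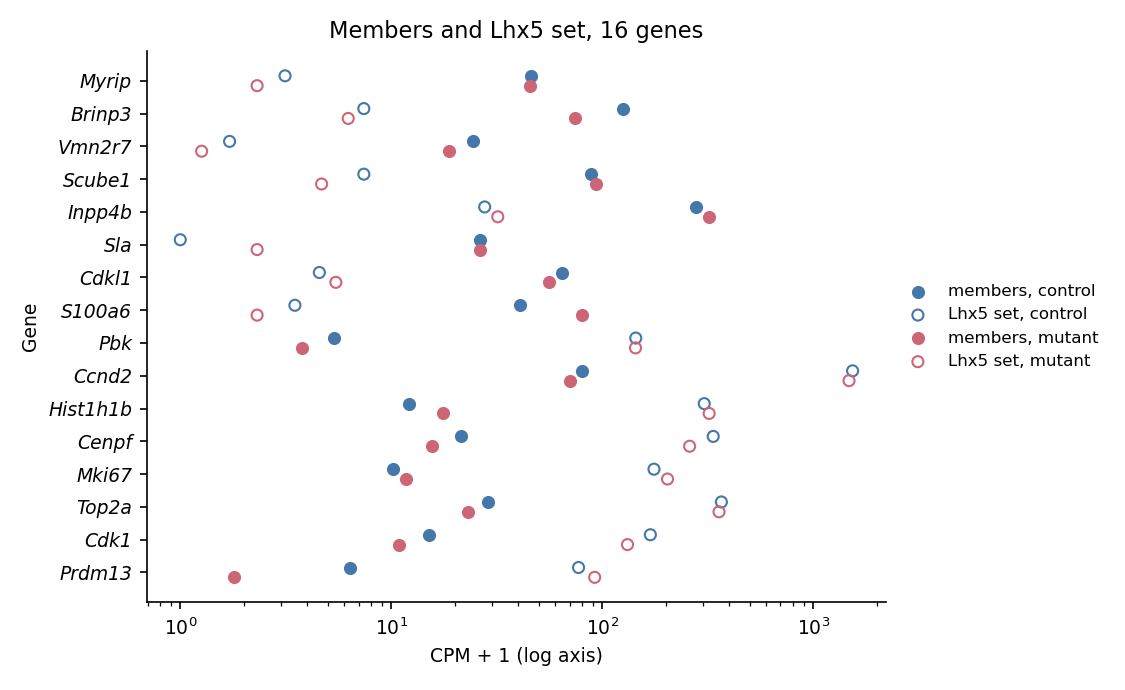
CPM + 1 on a log axis for the 8 genes named as higher and the 8 named as lower in members (filled circles) than in the Lhx5 set (open circles), with control in blue and mutant in red. The lower 8 genes, from Pbk to Prdm13, stand at under 80 CPM in members of both libraries.

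Against the Sst set, 339 of 10521 genes (3.22%) were at least 2-fold higher in members in both libraries and 395 (3.75%) at least 2-fold lower. Here no S or G2/M phase gene was 2-fold lower in members, and 1 of 18 tested G2/M genes was higher. Kit was at 287 and 315 CPM in members against 34.7 and 22.6 CPM in the Sst set. Gldc, the glycine cleavage enzyme, was at 54.0 and 54.8 CPM against 3.56 and 1.83 CPM, and Syt2, a synaptotagmin of fast-releasing neurons, at 33.6 and 40.9 CPM against 1.78 and 1.22 CPM. Rora was at 1935 and 2261 CPM against 371 and 259 CPM. The peptide gene Cck was at 129 and 71.4 CPM against 5.33 and 7.32 CPM, yet in the first cluster it was at 0 and 4.07 CPM, and in the members outside both leading clusters at 285 and 216 CPM.

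Thbs1, the matrix protein thrombospondin 1, was at 1.95 and 0.397 CPM against 91.6 and 60.4 CPM. Gabrg1, a GABA-A receptor subunit, was at 3.41 and 1.19 CPM against 98.7 and 132 CPM, and Sstr1, a somatostatin receptor, at 1.46 and 1.19 CPM against 47.1 and 45.1 CPM. Cntn4, a contactin, was at 70.5 and 142 CPM against 810 and 1190 CPM, and Sgcz at 285 and 213 CPM against 2348 and 2962 CPM. Of 38 transcription factors, 12 were higher in members and 4 lower, among the higher Nfia, Nfib, Nfix and Sox11.

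The Spock1-low remainder (101 control and 142 mutant Pax2 Gad barcodes with at most 1 Spock1 UMI and none of the 4 excluded genes) differed from the members by Spock1 alone in the rule. It was not otherwise alike. Its 8 Purkinje cell markers summed to 4900 and 6906 CPM, against 4059 and 3957 CPM in members. Its median depth was 8276 and 8766 UMIs, against 12601.5 and 13100 in members. Of 10966 genes, 168 (1.53%) were at least 2-fold higher in members in both libraries and 544 (4.96%) at least 2-fold lower. The 3 label markers were again among the highest, with Myrip at 44.8 and 44.4 CPM against 2.45 and 2.16 CPM and Grm8 at 190 and 183 CPM against 26.9 and 18.4 CPM. In second-cluster members, Alk (0 and 1.38 CPM) and Grm8 (2.39 and 13.8 CPM) were below their levels in the remainder. Camk2n1, an inhibitor of CaM kinase II, was at 245 and 288 CPM against 56.3 and 45.3 CPM. Of the 8 genes named as lower in members, 6, Ccdc153, Tmem212, Dynlrb2, Dnah12, Spef2 and Ccdc113, are genes of motile cilia. Dnah12, an axonemal dynein, was at 3.89 and 2.38 CPM in members against 154 and 70.7 CPM. Of 28 G2/M genes, 19 were lower in members and none higher.

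Between genotypes, 9117 genes had at least 50 UMIs over the members of both libraries. Of these, 406 (4.45%) were higher and 374 (4.1%) lower in mutant members by 1.5-fold or more, with a median log2 ratio of 0.02 over all genes tested. The interval of the ratio lay wholly on the same side of 1 in 322 and 294 of them. Of the 406 higher genes, 345 (85.0%) were also higher in the other kept mutant barcodes, and of the 374 lower ones, 299 (79.9%) were also lower. Over all genes tested, 71.0% had the same direction in both. At 1.5-fold or more in the other barcodes too, this held for 59 and 36 genes.

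Of the 8 genes named as higher in the mutant members, 7 were also higher by 1.5-fold or more in the other barcodes. Jund, a subunit of the AP-1 transcription factor, was at 101 CPM in control and 374 CPM in mutant members, a log2 ratio of 1.88 (1.67 to 2.11), and its ratio in the other barcodes was 1.72. Tmem158 was at 34.1 and 135 CPM (log2 ratio 1.98, against 1.88 in other barcodes). Cited2, a CBP/p300-binding transcriptional coregulator, was at 159 and 369 CPM (1.21, against 1.08), and Hras, a small GTPase, at 14.1 and 43.7 CPM (1.63, against 1.46). Nsmce4a, H1fx and Frat2 had log2 ratios of 1.73, 1.93 and 1.95, against 1.25, 1.37 and 1.41 in other barcodes. Antxr2, an anthrax toxin receptor that binds matrix proteins, was the exception among the 8, at 4.38 and 21.0 CPM (2.26, interval 1.23 to 3.47) with 0.15 in other barcodes. It rested on 9 control and 53 mutant UMIs. Its log2 ratio was 0.29 with up to 1 UMI of each excluded gene allowed and 0.99 with cells thinned before the rule. All 8 were higher in female cells and in male cells.

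Of the 8 genes named as lower in the mutant members, Fabp7, Ednrb, Aqp4, Tnc and Apoe are genes of astroglia. Fabp7, a fatty-acid binding protein of radial glia and astrocytes, was at 607 CPM in control and 94.8 CPM in mutant members, a log2 ratio of -2.68 (-2.88 to -2.48). Ednrb, an endothelin receptor, was at 49.6 and 3.57 CPM (-3.80), Aqp4, the astrocytic water channel, at 23.4 and 1.98 CPM (-3.56), and Tnc, the matrix protein tenascin C, at 34.1 and 5.95 CPM (-2.52). Apoe, an apolipoprotein of glia, was at 147 and 41.3 CPM (-1.84), and a single member held 43.9% of its control and 60.6% of its mutant UMIs. For Aqp4 a single control member held 62.5% of the UMIs. Beside this stood the 3 control members in the cluster led by Pgm5 and Tnc, and the astroglial marker sums of 339 and 104 CPM; their part in these ratios was not tested. Without the members marked as doublets the log2 ratio of Fabp7 was -0.56 and that of Ednrb -1.56. For Aqp4, Tnc and Apoe it was then -1.03, -0.28 and -0.66. Cyp26b1 went from -3.14 to -1.03 and Gabrb1 from -2.22 to -0.81. In the members of the 2 leading clusters the ratio of Fabp7 was -0.89 and that of Ednrb -1.85. In male cells Cyp26b1 (1 control and 7 mutant UMIs) and Apoe (7 and 12) were the higher in the mutant library, with intervals that include no difference.

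**Figure D5:**
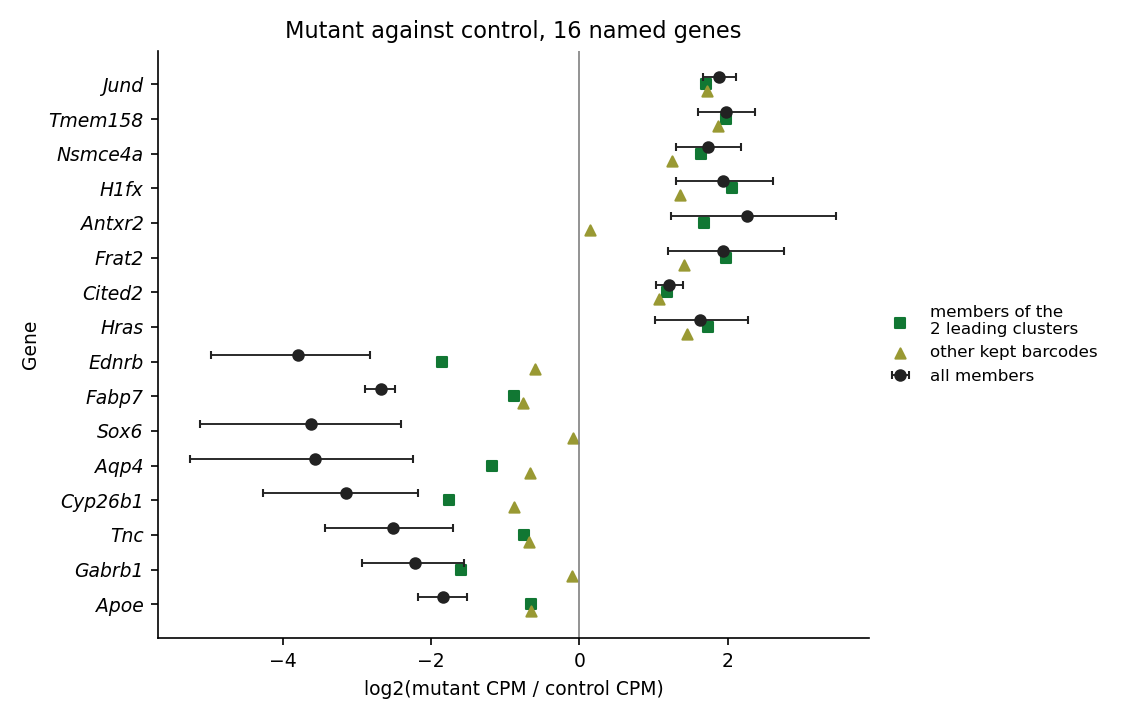
log2 ratio of mutant to control CPM (x axis) for the 8 genes named as higher and the 8 named as lower in mutant members (y axis): all members with exact 95% intervals (black), members of the 2 leading clusters (green squares) and other kept barcodes (yellow triangles). The higher genes other than Antxr2 lie close together in the 3 kinds of barcode, while the lower genes lie nearer to 0 in the leading clusters. Sox6 has no value there, since both libraries held at most 3 UMIs.

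Restricting the members to the 2 leading clusters, a choice made after seeing the data, left 7475 genes, with 422 higher and 241 lower in mutant members by 1.5-fold or more. The higher genes were then 63.7% of all called, against 52.1% over all members, and without doublet calls they were 60.9%. With up to 1 UMI of each excluded gene allowed, they were 40.4% (353 higher and 520 lower). The split between higher and lower genes therefore moved with which barcodes counted as members.

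In the leading clusters Tmem158 (39.7 and 156 CPM), Jund (120.0 and 392 CPM) and Cited2 (191 and 433 CPM) were again the higher in mutant members. Cdh12, a cadherin, was at 37.1 and 95.5 CPM, a log2 ratio of 1.37 (0.87 to 1.89), with 0.12 in the other barcodes. It was the higher in both clusters, with 1.52 in the first and 1.14 in the second. Of the lower genes, Zfhx3, a homeobox factor, was at 73.2 and 4.10 CPM (-4.16), with 47.0% of its control UMIs in 1 cell. Tcf7l2, a transcription factor of the Wnt pathway, was at 56.5 and 2.34 CPM (-4.59), with 60.9% of its control UMIs in 1 cell. Gpc6, a heparan sulfate proteoglycan, was at 116 and 64.5 CPM (-0.84, interval -1.22 to -0.47), with -0.05 in the other barcodes. Its ratios were -0.88 in the first and -0.86 in the second cluster. Gabra3, a GABA-A receptor subunit, was at 44.1 and 20.5 CPM (-1.10), with -1.57 in the first and -0.16 in the second cluster.

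Transcription factors of the inhibitory lineage leaned to the mutant side. Of 37 tested in all members, 3 were 1.5-fold or more higher and 1 lower, and the median log2 ratio was 0.23, beside 0.02 over all genes tested. The interval lay above 1 for 18 and below 1 for 2 of them, beside 12.6% and 10.6% of all genes tested. Pax2, which chose the members, is among the 37 and among the 18, so these counts are a description only. Lbx1, a homeobox factor of inhibitory neurons, was at 14.1 and 37.3 CPM, a log2 ratio of 1.40 (0.79 to 2.06), with 1.34 in other barcodes. Bhlhe22 was at 151 and 259 CPM (0.77, with 0.82 in other barcodes). Nfib was at 1662 and 2409 CPM (0.54, with 0.37 in other barcodes) and Pax2, part of the rule, at 278 and 409 CPM (0.55, with 0.47). Within the first cluster Pax2 was at 324 and 342 CPM, and within the second at 493 and 677 CPM. Meis2 was at 29.2 and 55.2 CPM, with 36.7% and 40.3% of the UMIs in 1 cell. Id2, an inhibitor of bHLH factors, was at 264 and 164 CPM (-0.69), and in the first cluster it was at 21.0 and 18.3 CPM.

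The lists of synapse and receptor genes are given by the number past 1.5-fold, beside 4.45% higher and 4.1% lower over all genes tested. Of 25 synaptic genes none was, and of 10 genes of GABA and glycine handling 1 was lower, Slc12a5, at 27.7 and 17.1 CPM. Those 10 include Gad1 and Gad2, which are part of the rule. Of 15 GABA and glycine receptor genes 2 were lower and none higher, and of 20 glutamate receptor genes 2 were higher and 3 lower. Both receptor lists thus had a larger share past 1.5-fold than all genes tested, on few genes. In members of the 2 leading clusters, none of 17 glutamate receptor genes was past 1.5-fold. Of 13 GABA and glycine receptor genes there, 1 was higher and 1 lower. Of 52 guidance and adhesion genes in all members, 4 were higher and 6 lower. Cntn4 was at 70.5 and 142 CPM (1.01, interval 0.73 to 1.30), with 0.24 in other barcodes, and its ratio was 0.39 in the first and 1.91 in the second cluster. Of 83 ribosomal protein genes, the interval lay below 1 for 52 and above 1 for 11, with a median log2 ratio of -0.17, beside 10.6% and 12.6% of all genes tested.

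Cxcr4 itself was barely detected in the members. Control members held 7 Cxcr4 UMIs (3.41 CPM, 1.37 to 7.02) and mutant members 13 (5.16 CPM, 2.75 to 8.82), so that a difference between the libraries was not detectable at this depth. Granule progenitor barcodes held 67.2 and 65.4 CPM. After thinning, 1 of 123 control and 3 of 156 mutant members held a Cxcr4 UMI. Ackr3, the other CXCL12 receptor, was at 3.41 and 1.59 CPM. Cxcl12 was at 35.0 and 37.7 CPM, and a single member held 79.2% of the control and 90.5% of the mutant UMIs, beside the member of each library in the cluster led by Col3a1. Of 12 tested genes of the CXCL12 and CXCR4 axis, none was 1.5-fold higher or lower in mutant members, with a median log2 ratio of 0.12. The interval lay above 1 for 2 of the 12 (Gnb1 and Rac1), where 12.6% of all genes tested had such an interval.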

How the data were processed

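The authors deposited, for each library, a matrix of raw counts, that is whole-number UMI counts per gene and barcode. Per the submitters' processing notes, reads were handled with bcl2fastq 2.20.0.4222 and Cell Ranger 7.2 on mm10. The annotation release and the counting of intronic reads are not given in the sources used here. Genotypes follow the genotype label, since the extraction protocol words the mutant differently. Cells were called female or male by Xist and Y-linked UMIs.

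UMIs were summed over members per library and given as CPM, with exact Poisson, Clopper-Pearson or conditional binomial intervals, at a level of 95%. Genes needed 50 UMIs over the sets compared, and a gene was called at 1.5-fold between libraries or 2-fold in both libraries between sets. A zero count was set to a floor of 3 UMIs in log2 ratios, and no ratio was given where both counts were at or under it. Clusters (scanpy 1.11.5, 2000 variable genes, 30 components, 15 neighbours) used all kept barcodes without the rule's genes, at Leiden resolution 1. For shares, cells were thinned to 5000 UMIs. Doublets were the highest Scrublet scores, at 0.8% per 1000 barcodes, and members were not filtered by them. Named genes were the 8 higher and 8 lower whose interval bound nearest to 1 lay farthest from it, leaving out rule, sex-linked, mitochondrial, ribosomal protein, haemoglobin and predicted genes. The label markers and leading genes of each list were named as well. Genes that describe clusters, and those of the leading clusters, were chosen after their values were seen. Members and gene lists were chosen with earlier results of these data known. Alternatives were other rules, filters, denominators, scalings (edgeR 4.0.16 TMM, DESeq2 size factors), sexes, resolutions and, added after seeing the data, single clusters. Gene coordinates are from GENCODE on GRCm38. The scripts' intervals were tested on simulated data. Values of some genes are not reported here.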

Additional observations from a re-analysis of the deposited data

How the results depend on the processing

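Limits. Each genotype is 1 library, so no alternative bears on genotype against library. Of the counts and shares recomputed, 82 stayed within their counting interval or 1.5 times the count and 30 did not. Of the single-gene ratios, 154 stayed within their interval, 60 moved out of it and 3 changed sign, leaving out 48 that minimums on other genes cannot change. The shift of the median log2 ratio by other scalings was 0.01 (TMM) and 0.02 (DESeq2 size factors). No paired analysis was possible because each genotype has 1 library.

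With Pax2 Gad barcodes as the denominator, the ratio of member shares was 0.914. The 2 leading clusters held 56.8% of members at resolution 0.5 and 54.5% at 2. Genes higher and lower in mutant members numbered 406 and 374 of 9117 tested in the main setting. At 20 UMIs or more they numbered 779 and 847 of 11491. They were 97 and 70 of 4581 at 200 or more, and 1639 and 1874 of 19518 from 1 UMI. Those lower numbered 246 of 5597 with cells thinned before the rule. In choices made after seeing the data, they were 206 of 5755 in the first cluster, 233 of 4495 in the second and 241 of 7475 in both. The counts thus differ in part because the numbers of genes tested differ. Against the Lhx5 set, 351 were higher and 217 lower with thinned cells, 374 and 413 at 200 UMIs or more, and 478 higher in female cells. Against the Sst set, 182 were higher and 212 lower at 200 UMIs or more, and 644 lower for the leading clusters. Against the Spock1-low remainder, 66 were higher and 110 lower with thinned cells, 100 and 85 in male cells, and 294 and 950 for the leading clusters. There 271 were lower in female cells, 115 lower at 200 UMIs or more, and 110 higher as means over cells. Fewer genes were tested under higher minimums. The counts between sets are given without the number of genes tested in each setting, so they are not shares.

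Log2 ratios changed sign for Cyp26b1 (2.31) and Apoe (0.28) in male cells and for Aqp4 (0.21) in the second cluster. No ratio was computed where both libraries held at most 3 UMIs, as for Sox6 in the leading clusters. The cause was not tested.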
